A study of Mus musculus with 10 samples.

Results

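The transcripts of the presynaptic vesicle cycle and of the active zone were followed in the whole brain of newborn mice with 1 functional *Arid1b* allele. The set was 43 genes of vesicle, SNARE, active zone and endocytosis proteins, named by the role of their proteins without a measured value in the rule, out of 18444 genes in the deposited table, and 43 of 43 were above the minimum level of the test. The libraries came from 5 heterozygous *Arid1b*+/- mice (HT 1 to HT 5) and 5 wild-type mice (WT 1 to WT 5), all male, of strain C57BL/6N and at postnatal day 3. The HT mice carried in every cell a CRISPR/Cas9 nickase deletion at exon 5 of *Arid1b* with TT inserted in its place, a protein-truncating change in a subunit of the BAF chromatin remodelling complex, and came from HT fathers and WT mothers. Polyadenylated RNA of the whole brain was sequenced, 1 library per mouse. In bulk tissue, fewer cells of a type and less RNA per cell cannot be told apart.

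A presynaptic terminal stores transmitter in vesicles that synapsins tether in a reserve pool. Vesicles dock at the active zone, a scaffold of large proteins beside the calcium channels, and are primed there by Munc13 and RIM proteins. SNARE proteins of vesicle and plasma membrane then zip together, synaptotagmins trigger fusion on calcium entry, and dynamin, synaptojanin and endophilin help to retrieve the membrane. In the newborn mouse brain, synapses are still sparse and these genes are becoming active in maturing neurons.

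Promoters of neuronal genes often hold an RE1 element, at which the repressor REST keeps them silent in other cells, or a cAMP response element (CRE), which activity-dependent factors bind. The letters of an RE1 left part (TTCAGCACC), an RE1 right part (GGACAGC), a CRE (TGACGTCA) and a GC box (GGGCGG) were searched on both strands of RefSeq promoter windows (GRCm38.p6, 250 bases before to 50 bases after a start). Windows were found for 36 of the 43 genes, 47 windows in all. TTCAGCACC stood in the windows of *Syn1*, *Unc13a* and *Ppfia3*, 6.38% of the 47 windows, against 0.371% of all 32851 windows. GGACAGC stood in 8.51% of member windows against 6.56% of all, TGACGTCA in 4.26% against 1.79%, and GGGCGG in 63.8% against 35.7%. The matches for the RE1 left part and for the CRE are shown with the matching letters in capitals, because they are the scarcest of the 4 motifs over all windows. The matches shown do not overlap one another. Each stretch is RefSeq sequence of build GRCm38.p6, written 5′ to 3′ on the strand of its gene. *Syn1* lies upstream of its first exon (chrX:20921005-20921168, minus strand) and holds an RE1 left part and a CRE, *Ppfia3* lies directly upstream of its start (chr7:45367020-45367269, minus strand), *Sh3gl2* lies in the first exon of its longest GENCODE transcript and before the RefSeq start (chr4:85205408-85205437, plus strand), and *Unc13a* lies in its first exon, where both RE1 parts match on the other strand (chr8:71671727-71671750, minus strand).
Syn1: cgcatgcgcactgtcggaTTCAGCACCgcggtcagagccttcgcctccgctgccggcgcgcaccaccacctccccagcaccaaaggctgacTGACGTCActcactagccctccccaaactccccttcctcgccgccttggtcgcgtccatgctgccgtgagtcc
Ppfia3: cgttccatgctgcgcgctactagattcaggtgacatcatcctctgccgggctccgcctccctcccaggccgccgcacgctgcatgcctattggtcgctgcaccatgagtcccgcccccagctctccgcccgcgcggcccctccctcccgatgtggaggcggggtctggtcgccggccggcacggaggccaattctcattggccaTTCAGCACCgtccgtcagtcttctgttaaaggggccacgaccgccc
Sh3gl2: atcacccgcccTGACGTCAgggtgtctctc
Unc13a: GCTGTCCgcgcccccGGTGCTGAA
A match of these letters is a description of the window, and binding was not measured.

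Values are normalised read counts, the estimated reads of a gene divided by a size factor for its library. Totals ranged from 27.2 M to 29.03 M per library (M, 1000000). *Arid1b* itself was at 63.0% of WT in HT, with 2101 ± 343 (SD, n = 5) against 3335 ± 203 (SD, n = 5), and its 5 HT values of 1505 to 2372 lay below its 5 WT values of 3108 to 3597. The library HT 4 stood apart from the other 9, with a score of 53.9 on the first principal component against -23.4 to 9.81, so the comparisons are given with and without it. Neuron markers were abundant in every library, with a summed level of 221354 to 253185 in HT and 234899 to 243035 in WT.

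**Figure D1:**
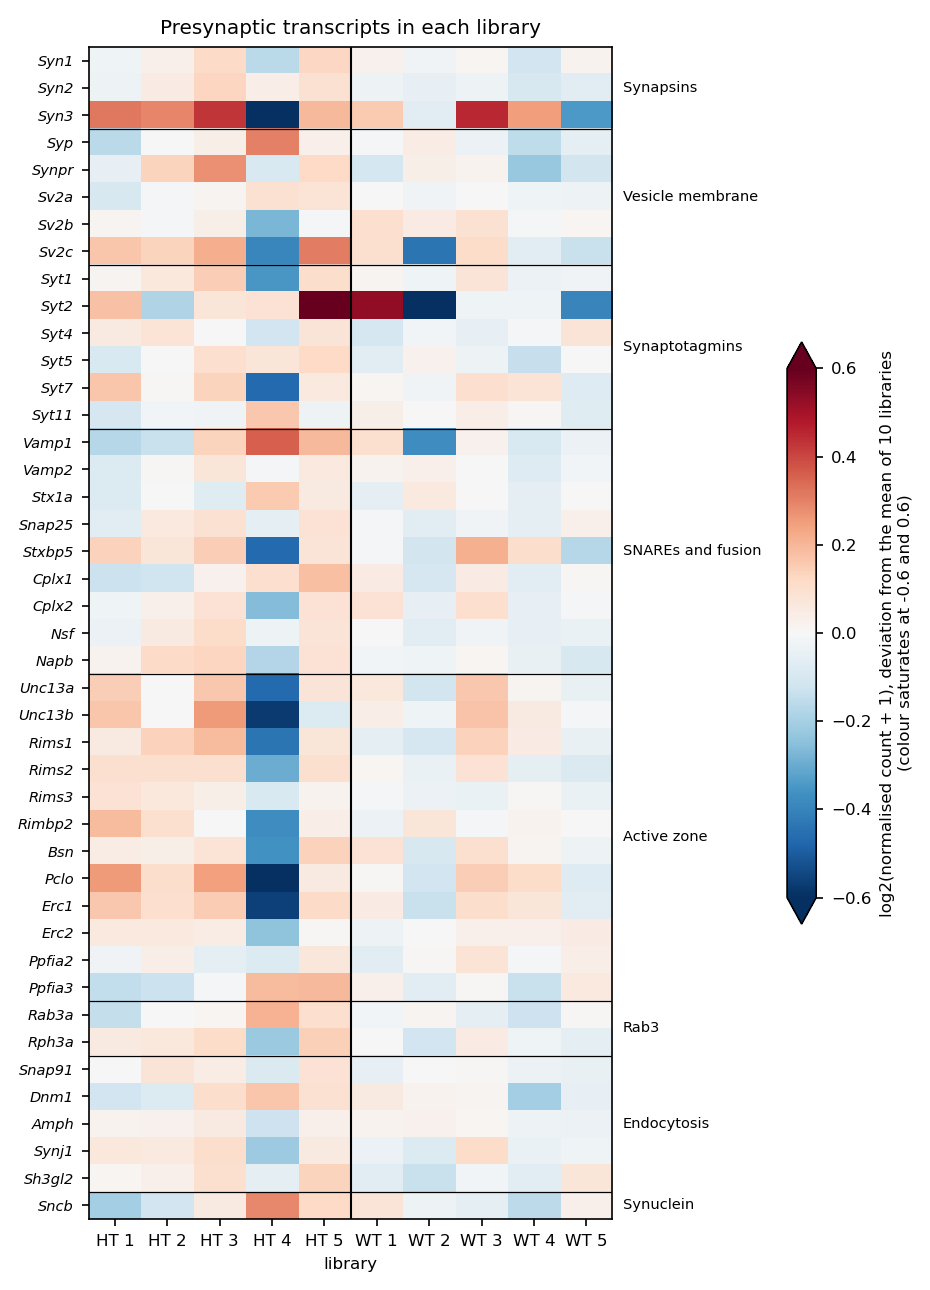
Deviation of each of the 43 genes from its mean over the 10 libraries, on the log2(normalised count + 1) scale (colour), by library (columns) and by role (blocks of rows). The column of HT 4 is mostly blue in the active zone block and reddest for *Vamp1*, *Syp* and *Sncb*, while *Syn3* reached 24.9% of the other HT mice there.

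The 43 transcripts were compared between HT and WT to ask whether loss of 1 *Arid1b* allele changes the message of the release machinery at this age. With all 10 libraries, 28 genes were higher and 15 lower in HT, with log2 fold changes from -0.18 (*Syn3*) to 0.33 (*Syt2*) and a median of 0.031, against -0.0074 over all genes. In the background, 46.4% of all 17020 genes tested were higher in HT. Only *Syn2*, which encodes a synapsin, had an unadjusted limma p below 0.05. Without HT 4, 37 genes were higher and 6 lower, with a median of 0.074 against -0.00081 over all genes, and 15 genes had an unadjusted p below 0.05, each of them higher in HT. These were *Syn2* of the synapsins, *Synpr* and *Sv2c* of the vesicle membrane, *Syt1*, *Nsf* and *Napb* of the fusion machinery, *Rims1*, *Rims2*, *Rims3*, *Pclo* and *Erc1* of the active zone, *Rph3a*, and *Snap91*, *Synj1* and *Sh3gl2* of endocytosis.

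No member passed the threshold after adjustment in either fit. With all 10 libraries the adjusted limma p was 0.9997 for every member, and 0.00% of all genes passed an adjusted p of 0.05. At an unadjusted p of 0.05 the members counted 1 of 43 (2.33%), against 3.41% of all genes and 1.47% for higher in HT. Without HT 4 the smallest adjusted limma p of a member was 0.446, and 0.0118% of all genes (2 genes) passed. At an unadjusted p of 0.05 the share was then 34.9% of members, against 8.40% of all genes and 4.69% for higher in HT, and 49.6% of all genes were higher in HT. Members share the mice and move together across them, so that 15 genes are not 15 separate observations. When the trend of each library on transcript length and GC content was also taken out, 11 members had an unadjusted p below 0.05 without HT 4, all 11 higher in HT, and 40 were higher in HT. Of the genes named above, *Syt1*, *Nsf*, *Rims1*, *Rims3*, *Pclo*, *Snap91* and *Synj1* were not among these 11. *Syn1*, *Syt5* and *Snap25* were among them instead. The background of that fit was 8.25% of all genes, 5.07% for higher in HT, and 54.4% of genes above 0. With HT 4 and 1 further library left out, the count lay between 8 (also without WT 2) and 17 (also without WT 3), all higher in HT, against 6.76% and 9.0% of all genes in those fits.

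A stricter description is whether every HT library lay above every WT library. This held for *Syn2* alone among the members with all libraries, against 0.282% of all genes, and for *Syn2*, *Sv2c*, *Napb*, *Rims2*, *Rims3* and *Rph3a* without HT 4, 6 of 43 against 1.75% of all genes. *Rims2* and *Rims3* were singled out after their values were seen.

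Markers of neurons and of other cells were read in the same comparison. Without HT 4, 9 of 10 neuron markers were higher in HT, at a median of 0.034 on the log2 scale, and 1 of 10 had an unadjusted p below 0.05. Of the 9 microglia markers 0 were higher, with a median of -0.33, and 2 had an unadjusted p below 0.05. Over all genes in that fit, 49.6% were higher in HT and 8.40% had such a p. With all 10 libraries, 6 of 10 neuron markers were higher (median 0.029) and 0 of 9 microglia markers (median -0.21). In this fit 0 of either list had such a p, where 46.4% of all genes were higher and 3.41% had such a p. The summed microglia level was 1847 to 2738 in HT and 1977 to 3314 in WT over all libraries. The part of neuron and microglia content in the presynaptic values was not tested.

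**Figure D2:**
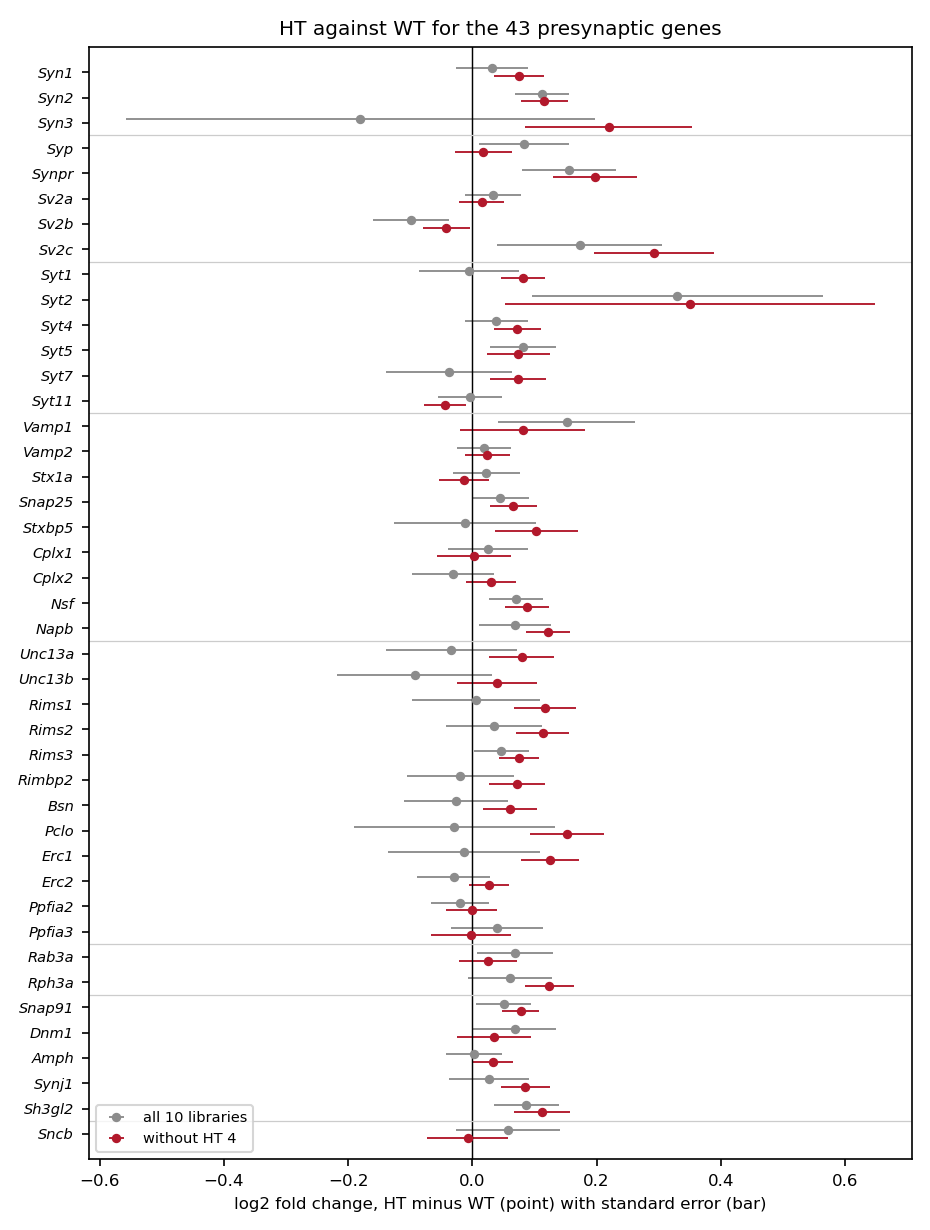
Log2 fold change of HT minus WT with its standard error for each of the 43 genes, in grey with all 10 libraries and in red without HT 4, in order of role. Red points lie to the right of 0 for 37 genes and grey points for 28, and the widest grey bars are those of *Syn3*, *Syt2* and *Pclo*.

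Synapsins coat the vesicle and hold it in the reserve pool. *Syn2* read 5825, 6159, 6504, 6116 and 6326 in HT 1 to HT 5 and 5817, 5747, 5815, 5555 and 5664 in WT 1 to WT 5. All 5 HT values were above all 5 WT values, although the step from WT 1 to HT 1 was small beside the spread within the groups. The group means were 6186 ± 253 in the HT mice (SD, n = 5) and 5719.8 ± 111 in the WT mice (SD, n = 5), or 108.2% of the WT mean, and the log2 fold change was 0.11 ± 0.043 (SE) at an unadjusted limma p of 0.0217 and an exact permutation p of 0.00794, the smallest that 5 against 5 libraries allow. Without HT 3, or without WT 4, its unadjusted p was no longer below 0.05, and 0 of the 43 members had such a p. *Syn1*, the X-linked synapsin, read 9157, 9515, 10085, 8340.3 and 10155 in HT 1 to HT 5 and 9504, 9179, 9389, 8621 and 9462 in WT 1 to WT 5. Its groups overlapped, HT 4 was the lowest library, HT 3 and HT 5 were the highest, and the log2 fold change was 0.031 ± 0.058 (SE), or 0.075 ± 0.041 (SE) without HT 4. *Syn3*, an early synapsin, was named after its values were seen and read 899.9, 884, 973, 223 and 827 in HT 1 to HT 5 and 805, 689.7, 988, 859 and 567 in WT 1 to WT 5. HT 4 was far below the other 9 libraries, and the other HT values lay inside the WT range. Its fold change on the log2 scale turned from -0.18 ± 0.38 (SE) with HT 4 to 0.22 ± 0.13 (SE) without it, and 14.1% of its exon bases overlap *Timp3* on the other strand.

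Among proteins of the vesicle membrane, *Syp* (synaptophysin, the most abundant of them) read 13394, 14987, 15324, 18468 and 15284 in HT 1 to HT 5 and 14839.8, 15442, 14592, 13489 and 14438 in WT 1 to WT 5. HT 4 was the highest library and HT 1 the lowest, and the 4 other HT values overlapped WT. *Synpr*, a synaptophysin relative, read 1585, 1796, 1978, 1537 and 1779.7 in HT 1 to HT 5 and 1523, 1676, 1661, 1399 and 1515 in WT 1 to WT 5. HT 2, HT 3 and HT 5 were above every WT library, HT 1 and HT 4 were inside the WT range, and the log2 fold change was 0.16 ± 0.076 (SE) with all libraries and 0.20 ± 0.068 (SE) without HT 4.

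The SV2 glycoproteins, which bind synaptotagmin and are needed for normal release, differed in the sign of their fold changes. *Sv2a* read 9102, 9681, 9866, 10370.3 and 10321 in HT 1 to HT 5 and 9749.8, 9592, 9738, 9563 and 9526 in WT 1 to WT 5. The WT values were the tightest of all members, with a coefficient of variation of 1.07%, and they lay wholly inside the range of HT. *Sv2b* read 3251, 3183, 3292, 2651 and 3183 in HT 1 to HT 5 and 3442, 3323, 3423, 3194 and 3232 in WT 1 to WT 5. It was the member with the second lowest fold change, -0.098 ± 0.061 (SE) on the log2 scale, which was -0.042 ± 0.038 (SE) without HT 4, and its groups overlapped. *Sv2c* read 2559, 2504, 2653, 1738 and 2825 in HT 1 to HT 5 and 2439, 1686, 2463, 2181 and 2077 in WT 1 to WT 5. HT 4 and WT 2 were both low, and the 4 other HT libraries were above every WT library, with a log2 fold change of 0.29 ± 0.097 (SE) without HT 4 and an exact permutation p of 0.0159, the smallest for 4 against 5.

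Synaptotagmins are the calcium sensors of vesicles. *Syt1*, the main fast sensor of the forebrain, read 15573, 16084, 17032, 12072 and 16537 in HT 1 to HT 5 and 15551, 15125, 16208, 15001 and 15167 in WT 1 to WT 5. HT 4 was lowest by a wide step, the other groups overlapped, and the log2 fold change was -0.0053 ± 0.080 (SE) with HT 4 and 0.081 ± 0.035 (SE) without it. *Syt2*, the fast sensor of hindbrain and spinal cord, read 849, 664, 791, 797 and 1196 in HT 1 to HT 5 and 1086, 401, 738, 737 and 571 in WT 1 to WT 5. HT 5 and WT 1 were high, WT 2 was low, and the groups overlapped. *Syt5* read 2783, 2972, 3182, 3116 and 3225 in HT 1 to HT 5 and 2840.1, 3017, 2905, 2698 and 2964 in WT 1 to WT 5. HT 3, HT 4 and HT 5 were above every WT library and HT 1 was inside the WT range, with a log2 fold change of 0.082 ± 0.053 (SE). *Syt7*, a slow calcium sensor, and *Syt4* and *Syt11*, which lack calcium-triggered fusion activity, had log2 fold changes without HT 4 of 0.073 ± 0.045, 0.073 ± 0.037 and -0.044 ± 0.034 (SE).

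The SNARE core joins the vesicle protein VAMP2 to syntaxin 1A and SNAP25. *Vamp2*, the most abundant member per length, read 18084, 19261, 20150.3, 18963 and 19932 in HT 1 to HT 5 and 19399.8, 19570.5, 19099, 18114 and 18933 in WT 1 to WT 5. The groups overlapped over nearly all of their ranges, with a log2 fold change of 0.019 ± 0.043 (SE). *Stx1a* read 4031, 4272, 4055, 4756 and 4422 in HT 1 to HT 5 and 4095, 4436, 4269, 4104 and 4266 in WT 1 to WT 5. HT 4 was the highest library and HT 1 and HT 3 were below every WT library, with 0.023 ± 0.053 (SE) on the log2 scale. *Snap25* read 10807, 11772, 12059, 10840.1 and 11989.9 in HT 1 to HT 5 and 11233, 10829.9, 11140.5, 10895 and 11542 in WT 1 to WT 5. HT 2, HT 3 and HT 5 were above every WT library, while HT 1 was the lowest of the 10.

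*Vamp1*, the VAMP of hindbrain and motor circuits, read 1022, 1049, 1264, 1479 and 1318 in HT 1 to HT 5 and 1232, 889, 1172, 1079 and 1124 in WT 1 to WT 5. HT 4 was highest and WT 2 lowest, and the groups overlapped. Complexins clamp and then promote fusion of the assembled SNAREs. *Cplx1* read 4116, 4141, 4584, 4826 and 5091 in HT 1 to HT 5 and 4653, 4188, 4646, 4293 and 4525 in WT 1 to WT 5. HT 4 and HT 5 were above every WT library and HT 1 and HT 2 below every one. *Cplx2* read 14972, 15597, 16198, 12741 and 16198 in HT 1 to HT 5 and 16172, 14739.6, 16356, 14723 and 15152 in WT 1 to WT 5. HT 4 was lowest and the other libraries overlapped.

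NSF and its adaptor beta-SNAP (*Napb*) take used SNARE complexes apart. *Nsf* read 7768, 8279, 8605, 7788 and 8407 in HT 1 to HT 5 and 7940.1, 7630.1, 7840.2, 7698 and 7758 in WT 1 to WT 5. HT 2, HT 3 and HT 5 were above every WT library and the other HT values were inside the WT range, with a log2 fold change of 0.071 ± 0.043 (SE), or 0.088 ± 0.035 (SE) without HT 4. *Napb* read 7029, 7495, 7570.0, 6141 and 7347 in HT 1 to HT 5 and 6845, 6810.1, 6982, 6718 and 6475 in WT 1 to WT 5. HT 4 was the lowest of the 10 and the other 4 HT libraries were above every WT library. Without HT 4 the means were 7360.2 ± 239.7 in the HT mice (SD, n = 4) and 6766 ± 188 in the WT mice (SD, n = 5). The log2 fold change was then 0.12 ± 0.035 (SE), and its unadjusted limma p of 0.00394 was the smallest of the 43. *Stxbp5*, tomosyn, an inhibitor of SNARE assembly, ranged from 1995 (HT 4) to 3193 (WT 3) and had a log2 fold change of -0.012 ± 0.11 (SE) with HT 4 and 0.10 ± 0.067 (SE) without it.

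**Figure D3:**
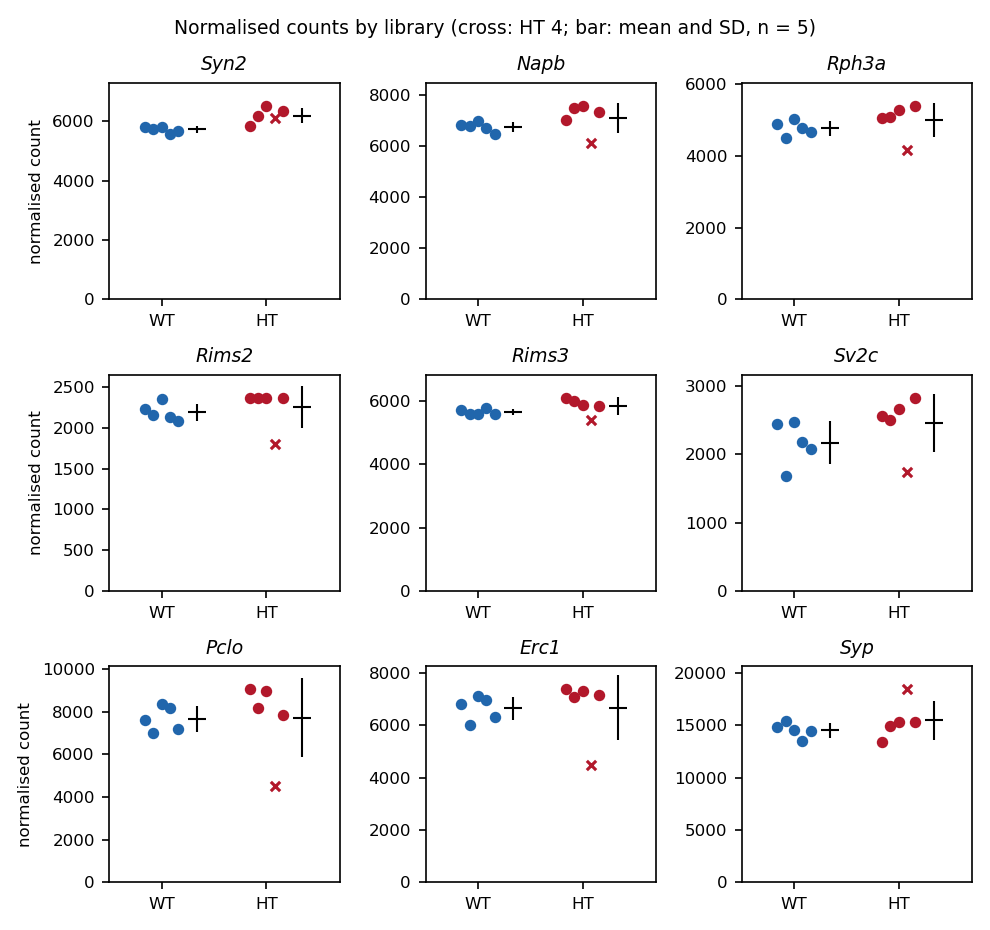
Normalised counts of 9 members by library (points; the cross is HT 4) with the mean and SD of each group of 5 (black), each axis from 0. In *Napb*, *Rph3a*, *Rims2*, *Rims3* and *Sv2c* the 4 other HT points lie above every WT point, in *Syn2* all 5 do, and in *Syp* the cross is the highest point.

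Of the roles with more than 1 gene, the active zone had the largest shift in the share of genes higher in HT between the fits. With all libraries 4 of its 12 genes were higher in HT, with a median of -0.019, and without HT 4 the count was 10 of 12, with a median of 0.074 and 5 genes at an unadjusted p below 0.05. Over all genes the shares higher in HT were 46.4% and 49.6%, and 8.40% had such a p without HT 4. With the length and GC trend removed, 10 of the 12 were higher in HT with all libraries. Without HT 4 it was then 11 of 12, and 2 had such a p. All genes in those fits gave 54.5% and 54.4% higher in HT, and 8.25% with such a p without HT 4. *Unc13a*, Munc13-1, which primes vesicles, read 9029, 8152, 9114, 5894 and 8612 in HT 1 to HT 5 and 8529.6, 7547, 9120.3, 8252 and 7897 in WT 1 to WT 5. The lowest library was HT 4, and the other groups overlapped. *Unc13b*, Munc13-2, read 2726, 2437, 2896, 1631 and 2298 in HT 1 to HT 5 and 2497, 2389.7, 2735, 2525 and 2415 in WT 1 to WT 5. HT 4 was again lowest, HT 5 was also below every WT library and HT 3 was above every one.

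RIM proteins tether calcium channels and Rab3 vesicles. *Rims1* read 3992, 4221, 4378, 2830.3 and 4039 in HT 1 to HT 5 and 3684, 3578, 4231, 3975 and 3723 in WT 1 to WT 5. HT 4 was the lowest and HT 3 the highest of the 10, and the log2 fold change was 0.0063 ± 0.10 (SE) with HT 4 and 0.12 ± 0.050 (SE) without it. *Rims2* read 2373, 2371, 2368, 1804 and 2373 in HT 1 to HT 5 and 2234, 2158, 2353, 2135 and 2087 in WT 1 to WT 5. The 4 HT libraries other than HT 4 lay close together and were above every WT library. *Rims3* read 6108, 6004, 5883, 5394 and 5832 in HT 1 to HT 5 and 5724, 5606, 5587, 5767 and 5582 in WT 1 to WT 5. The same 4 HT libraries were above every WT library, with a log2 fold change of 0.075 ± 0.032 (SE) without HT 4. *Rimbp2*, a binding partner of RIM, had 0.072 ± 0.045 (SE) on the log2 scale without HT 4.

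Bassoon and Piccolo are the giant scaffolds of the active zone. *Bsn* read 6706, 6674, 6874, 5055 and 7149 in HT 1 to HT 5 and 6899, 6077, 6946, 6573 and 6367 in WT 1 to WT 5. HT 4 was lowest, HT 5 was above every WT library and the rest overlapped. *Pclo* read 9049, 8155, 8985, 4538 and 7855 in HT 1 to HT 5 and 7598, 6999, 8375, 8169 and 7182 in WT 1 to WT 5. HT 4 was at 53.3% of the mean of the other HT mice, HT 1 and HT 3 were above every WT library, and the log2 fold change turned from -0.029 ± 0.16 (SE) to 0.15 ± 0.059 (SE) without HT 4.

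ELKS proteins (*Erc1*, *Erc2*) and liprins (*Ppfia2*, *Ppfia3*) complete the scaffold. *Erc1* read 7373, 7066, 7320.1, 4469 and 7145 in HT 1 to HT 5 and 6816, 6019.8, 7098, 6944 and 6314 in WT 1 to WT 5. HT 4 was lowest, at 61.8% of the other HT mice, HT 1, HT 3 and HT 5 were above every WT library, and the log2 fold change without HT 4 was 0.12 ± 0.047 (SE). *Erc2* read 6755, 6758, 6692, 5487 and 6514 in HT 1 to HT 5 and 6349.6, 6469.6, 6624, 6620.4 and 6723 in WT 1 to WT 5. HT 4 was lowest and the other groups overlapped, with 0.027 ± 0.032 (SE) on the log2 scale without it. *Ppfia2* and *Ppfia3* had log2 fold changes of -0.0012 ± 0.040 and -0.0023 ± 0.065 (SE) without HT 4. Exons of *Ppfia2* overlap *Acss3* on the other strand over 22.3% of their bases.

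Rab3 carries vesicles to the active zone, and rabphilin binds it. *Rab3a* read 7286, 8034, 8120.2, 9291 and 8631 in HT 1 to HT 5 and 7966, 8147, 7756, 7379 and 8093 in WT 1 to WT 5. HT 4 and HT 5 were above every WT library, HT 1 was the lowest of the 10, and the log2 fold change was 0.069 ± 0.062 (SE), or 0.025 ± 0.047 (SE) without HT 4. *Rph3a*, rabphilin, read 5057, 5086, 5263, 4171 and 5382 in HT 1 to HT 5 and 4883, 4493, 5034, 4778 and 4668 in WT 1 to WT 5. The lowest library was HT 4, and the other 4 HT libraries were above every WT library. Without HT 4 the means were 5197 ± 153 in the HT mice (SD, n = 4) and 4771 ± 206 in the WT mice (SD, n = 5). The log2 fold change was then 0.12 ± 0.040 (SE), with an unadjusted limma p of 0.00743 and an adjusted limma p of 0.446. With the length and GC trend also taken out, its adjusted limma p of 0.366 was the lowest of any member.

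All 5 endocytosis genes were above 0 in both fits, against 46.4% of all genes with all libraries and 49.6% without HT 4. Among the 5, *Amph* lay close to 0 with all libraries. *Snap91*, the clathrin adaptor AP180, read 12582, 13229.6, 12961, 11835 and 13321 in HT 1 to HT 5 and 12147, 12530.3, 12608, 12235 and 12172 in WT 1 to WT 5. HT 2, HT 3 and HT 5 were above every WT library and HT 4 was lowest. *Dnm1*, dynamin 1, which pinches vesicles off, read 9456, 9647, 11015, 11478 and 10907 in HT 1 to HT 5 and 10598, 10364, 10331, 8867 and 9877 in WT 1 to WT 5. HT 3, HT 4 and HT 5 were above every WT library, and WT 4 was the lowest of the 10.

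*Synj1*, synaptojanin, which helps new vesicles to shed their coat, read 6859.7, 6837, 7069.6, 5636 and 6821 in HT 1 to HT 5 and 6397, 6202, 7089, 6391 and 6448 in WT 1 to WT 5. HT 4 was lowest, WT 3 was highest, and the log2 fold change was 0.027 ± 0.064 (SE) with HT 4 and 0.086 ± 0.040 (SE) without it. *Sh3gl2*, endophilin A1, its recruiter, read 4107, 4166, 4352, 3916 and 4469 in HT 1 to HT 5 and 3879.9, 3718, 4024, 3879.9 and 4282 in WT 1 to WT 5. HT 3 and HT 5 were above every WT library and the others overlapped, with 0.087 ± 0.053 (SE) on the log2 scale, or 0.11 ± 0.045 (SE) without HT 4. *Amph*, amphiphysin, had a log2 fold change of 0.0031 ± 0.045 (SE) with all libraries and 0.034 ± 0.032 (SE) without HT 4. *Sncb*, beta-synuclein, a small vesicle-associated protein, read 3616, 3842, 4328, 5080.1 and 4532 in HT 1 to HT 5 and 4388, 4075, 3999, 3737 and 4256 in WT 1 to WT 5. HT 4 was highest and HT 1 lowest, and the sign of the fold change depended on HT 4, with 0.057 ± 0.084 (SE) on the log2 scale with it and -0.0077 ± 0.066 (SE) without.

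Levels were compared between genes only per length, as WT normalised counts per kilobase of the median coding transcript (mean ± SD over 5 mice). *Vamp2* came first at 11467 ± 341 (SD, n = 5), followed by *Snap25* at 7110 ± 182 (SD, n = 5). *Syp* and *Rab3a* followed at 5620 ± 274 and 5586 ± 222, closer to each other than either spread. *Syt7* was at 4258 ± 217 and *Sncb* at 3947 ± 241. The length of *Syt7* is a median of 1704 bases over 9 annotated coding transcripts. Such medians are not weighted by the transcripts in use, so the order depends on the lengths taken. From *Syt1* (3222 ± 103) through *Cplx2* (3131 ± 159), *Dnm1* (3078 ± 212) and *Snap91* (2942 ± 51.2) to *Syn1* (2853 ± 112), each gene differed from the next by less than the larger of their SDs.

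Active zone genes lay in the lower part of this order. *Erc2*, at 1346 ± 30.2 per kilobase, was the highest of them, *Unc13a* was at 1040 ± 75.8, and *Pclo* (415 ± 32.5) and *Bsn* (412 ± 22.9) could not be told apart by their spread. The last of the 43 were *Sv2c* (384 ± 56.1), *Syn3* (246 ± 50.6) and *Syt2* (138 ± 49.4). Those 3 and *Vamp1* also varied the most among WT mice, with coefficients of variation of 14.6%, 20.6%, 35.9% and 11.9%.

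The place of HT 4 within the members varied with transcript length. For the 12 members with a median coding transcript over 5000 bases, HT 4 was below the mean of the other 4 HT mice in 12 of 12, with a median log2 difference of -0.50. Over the 23 members of 2500 to 5000 bases the median was -0.17, and over the 8 below 2500 bases it was 0.075. The same classes of all genes gave -0.32, -0.067 and 0.18, and HT 4 was below the other HT mice for 82.7% of the 2261 genes over 5000 bases. Spearman's rho between length and the HT 4 deviation was -0.57 over the 43 members and -0.45 over all genes, a description across genes that share 1 library. The same rho over the members was 0.62, 0.49, 0.30 and 0.044 in HT 1, HT 2, HT 3 and HT 5, each against the other mice of its group. In WT 1 to WT 5 it was -0.011, -0.47, 0.55, 0.50 and -0.49, so that a relation to length of this size was not particular to HT 4. Over all genes the other 9 libraries ranged from -0.21 to 0.33. HT 4 was the lowest of the 10 libraries for 24 members, against 27.5% of all genes, and the highest for 8, against 24.7%. *Syn3*, at 24.9% of the other HT mice, is not a long transcript, and its difference of -2.0 on the log2 scale was -1.95 with the length and GC trend removed. HT 4 also had the lowest score of forebrain glutamatergic markers, a mean log2 deviation of -0.42, where the other 9 had -0.05 to 0.17. HT 4 was also the lowest library for the neuron (-0.083) and GABAergic (-0.165) scores. It was the highest for the cerebellar (0.66), astrocyte (0.14), oligodendrocyte (0.30) and endothelial (0.10) scores. The part of forebrain neuron or other cell content in the HT 4 values was not tested.

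**Figure D4:**
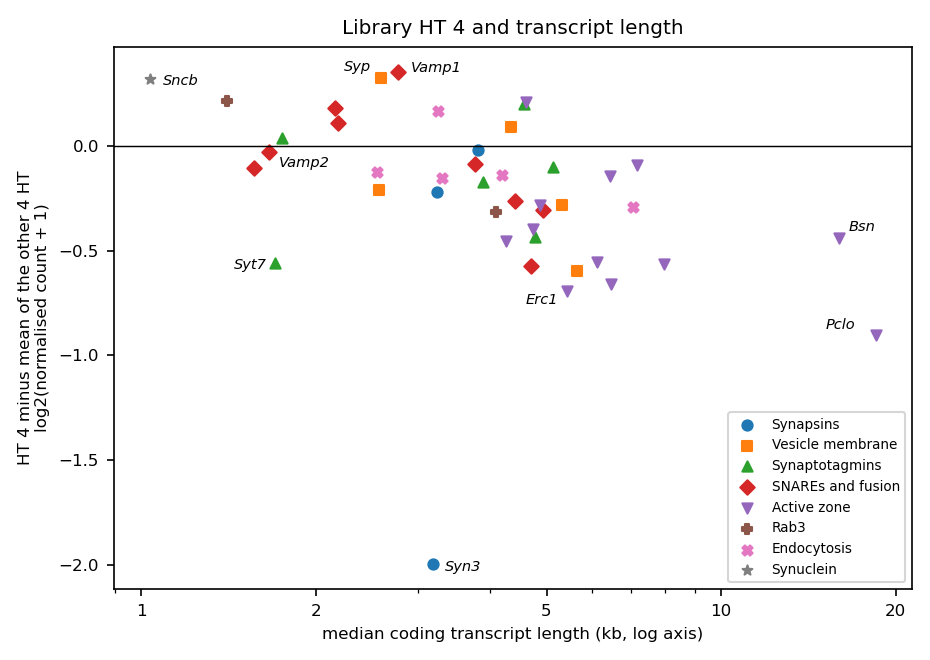
Difference between HT 4 and the mean of the other 4 HT libraries on the log2(normalised count + 1) scale (vertical) against median coding transcript length in kilobases (horizontal, log axis), 1 point per member, marked by role. The 12 members over 5 kilobases all lie below 0, *Pclo* lowest among them, and *Syn3* lies apart at -2.0. Of all genes over 5 kilobases (not drawn), 82.7% were below 0.

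Ratios between related members within a library are free of a scale that both genes share, and 8 were formed. In WT, *Syt1* exceeded *Syt2* 22.95-fold and *Vamp2* exceeded *Vamp1* 17.4-fold, while *Unc13a* exceeded *Unc13b* 3.29-fold, *Sv2a* exceeded *Sv2b* 2.9-fold and *Syn1* exceeded *Syn2* 1.61-fold. *Cplx1* was at 0.289 of *Cplx2*, *Bsn* at 0.859 of *Pclo*, and *Erc2* at 0.989 of *Erc1*. These are ratios of normalised counts and are not corrected for length. For none of the 8 ratios did the exact permutation p between HT and WT fall below 0.05 with all libraries or without HT 4. The smallest exact permutation p was 0.0635, for *Syn1* over *Syn2*, with a log2 difference of -0.081 between 0.61 ± 0.093 in HT and 0.69 ± 0.039 in WT. Adjusted over the 8 ratios, the exact permutation p was at least 0.444 with all libraries and at least 0.476 without HT 4.

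*Syt2*, *Vamp1* and *Sv2c*, the members with the largest spread in WT beside *Syn3*, were set beside a score of 11 hindbrain and spinal cord markers, the mean log2 deviation of those markers in a library. WT 2 had the lowest score, -2.27, and was the lowest of the 10 libraries for *Syt2*, *Vamp1* and *Sv2c*. HT 5 had the highest score, 1.60, and was the highest library for *Syt2* and *Sv2c*. WT 2 is part of the WT spread by which these genes stood out, so its low place is not a separate observation. WT 1, with a score of -0.29, had the next highest *Syt2*. HT 1 and HT 2, with scores of -0.96 and -1.18, had *Sv2c* of 2559 and 2504, above every WT library. *Syn3*, left out of this set, read 690 in WT 2 and 567 in WT 5, whose score was 0.52. The order of libraries was thus not the same throughout. The summed level of the 11 markers was 5361 to 7169 in HT and 4445 to 5699 in WT, and 2 of them were at 0 in at least 1 library. Most of that sum was *Slc17a6* alone, at 4143 to 5025 over the 10 libraries. *Sv2c* without WT 2 had a log2 fold change of 0.085 with all other libraries, and *Syt2* had 0.15, against 0.17 and 0.33 with WT 2. The part of hindbrain and cord content in these 3 genes was not tested.

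**Figure D5:**
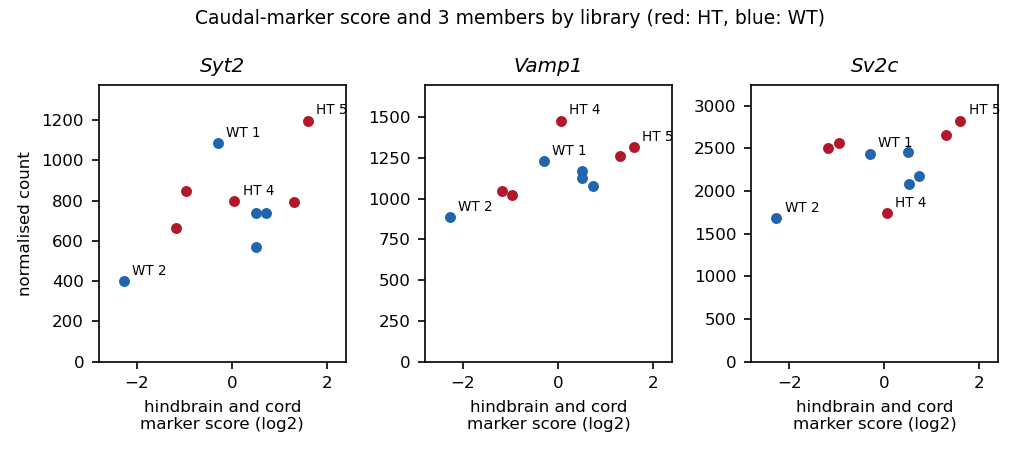
Normalised counts of *Syt2*, *Vamp1* and *Sv2c* (vertical, each axis from 0) against the hindbrain and cord marker score (horizontal, log2), 1 point per library, with HT in red and WT in blue. WT 2, at a score of -2.27, is the lowest point in each panel, and HT 5, at 1.60, is the highest for *Syt2* and *Sv2c*.

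A further 75 genes of the vesicle cycle, listed by their known roles, were read in the same fits. With all libraries, 60 of the 75 were higher in HT and the median was 0.033 on the log2 scale, and 3 had an unadjusted p below 0.05 (4.0%), all 3 higher, against 3.41% of all genes with such a p and 46.4% higher in HT. Without HT 4, 59 were higher, with a median of 0.042, and 12 of 75 had an unadjusted p below 0.05, all 12 higher, or 16% against the 8.40% of all genes, of which 49.6% were higher in HT. None passed the adjusted threshold in limma, the smallest adjusted p being 0.351. *Cplx3*, a complexin of ribbon synapses and of the cortical subplate, read 132, 159, 95.2, 105 and 219.8 in HT 1 to HT 5 and 75.1, 103, 122, 61.4 and 115 in WT 1 to WT 5. HT 1, HT 2 and HT 5 were above every WT library. *Rab27b*, a vesicle GTPase, read 887, 787, 961, 756 and 907 in HT 1 to HT 5 and 758, 819, 736, 683 and 728 in WT 1 to WT 5. HT 1, HT 3 and HT 5 were above every WT library. *Syt3* read 1241, 1309.8, 1298, 1539 and 1295 in HT 1 to HT 5 and 1231, 1249, 1281, 1118 and 1151 in WT 1 to WT 5. HT 1 alone of the HT mice was inside the WT range.

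Without HT 4, 2 further genes of that list stood first with *Rab27b*. *Dnm3*, a dynamin, read 7251, 7198, 7203, 5092 and 6939 in HT 1 to HT 5 and 6456, 6327, 6739, 6504 and 6501 in WT 1 to WT 5. *Unc13c*, Munc13-3, the Munc13 of cerebellar granule cells, read 1132, 1219, 1237, 926 and 1105 in HT 1 to HT 5 and 928, 1031, 1078, 965 and 1009 in WT 1 to WT 5. In both genes HT 4 was the lowest library and the other 4 HT libraries were above every WT library. The log2 fold changes without HT 4 were 0.14 ± 0.032 and 0.23 ± 0.058 (SE). Such a separation without HT 4 held for 5 of the 75 genes and for 1.75% of all genes. These 2 genes were chosen for a small p in that fit, so their separation is no further support.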

How the data were processed

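Poly-A-selected RNA from the whole brain of 10 mice was sequenced as stranded paired-end libraries, and the labels gave the group and number of each. Per the study's methods and the submitters' processing notes, the authors estimated reads with Salmon 1.1.0 on GRCm38 with GC bias correction and divided them by DESeq2 1.30.1 size factors. The deposited table holds this signal value, a normalised read count, for 18444 genes and 10 libraries. The annotation release, the low-count filter and the strand setting are not given in the sources used here. Values were not whole numbers, so no count test was run. Totals were 27.2 M to 29.03 M per library (M, 1000000). Errors reflect variation among libraries, in which variation among mice, of preparation and of counting cannot be told apart.

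A model was fitted to log2(value + 1) by limma 3.58.1 under R 4.3.3 (trend, robust, two-sided, no covariate), which understates the change of low genes. The fit covered 17020 genes with a mean of at least 10, 1424 were left out, and p-values were adjusted by Benjamini-Hochberg over all genes tested at a threshold of 0.05. Single genes and ratios were also tested by a two-sided exact permutation test over all assignments of the libraries. On simulated data for this comparison with 17020 genes, limma recovered 84% of 100 genes changed 2-fold and 57% of 100 changed 1.5-fold, with 12 false calls. Symbols, positions (GRCm38) and lengths came from GENCODE M21. Alternatives were other pseudocounts, filters and scalings, sample weights, no robust step, a replicate block, a loess trend on transcript length and GC content taken out of each library (17008 genes), and libraries left out. Leaving out HT 4 together with each other library was added after seeing the data.

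The members, marker lists and other lists were chosen with earlier results of these data known. Values by library are given for anchors of each role, for the 6 members with the smallest limma p with all libraries and the 6 without HT 4, for the genes of the 8 ratios, and for the 3 further presynaptic genes with the smallest p in each fit. Of 10 marker lists, the neuron, forebrain glutamatergic, hindbrain and cord, and microglia lists are given in the report. The other 6 are given among the other observations, apart from some scores of HT 4. The labels give replicate numbers but no pairs, so the main fit used no pairing. A check in the closing section did not settle whether the numbers pair the libraries.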

Additional observations from a re-analysis of the deposited data

Results flagged for a closer look

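Among groups of 5 libraries, 16 of 106 groups (53 genes and ratios, each in HT and WT) had a library at one end whose gap to the nearest other, divided by the whole range of the group, was above Dixon's critical value of 0.71, where chance gives about 5.3. HT 4 was that library in 14 of the 16, the lowest in 13 and the highest in 1. In HT, HT 4 was low with ratios of 0.805 for *Syn3* (223 against 827 in the next library), 0.83 for *Sv2b*, 0.851 for *Stxbp5*, 0.75 for *Rims1*, 0.991 for *Rims2* (1804 against 2368), 0.773 for *Bsn*, 0.735 for *Pclo* (4538 against 7855), 0.894 for *Erc1*, 0.808 for *Erc2*, 0.732 for *Rph3a*, 0.804 for *Amph* and 0.826 for *Synj1*. Among the log2 ratios of related genes, HT 4 was low for *Syn1* over *Syn2* (0.764) and high for *Erc2* over *Erc1* (0.839). In WT, WT 3 was high for *Synj1* (0.723, with 7089 against 6448 in the next library). WT 2 was high for the log2 ratio of *Vamp2* over *Vamp1* (0.80, with 4.46 against 4.07 in the next library). Of the 12 genes low in HT 4, *Syn3* and *Amph* have median coding transcripts of 3183 and 3296 bases and the other 10 of at least 4096 bases.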

How the results depend on the processing

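No member and no further presynaptic gene passed an adjusted p of 0.05 in limma under any alternative. Members with an unadjusted p below 0.05, 1 as reported, were 2 with upper quartile scaling, 2 with quantile normalisation, 8 with sample weights, 5 with the length and GC trend removed, 11 with that trend removed and without HT 4, and 0 (without HT 3 or WT 4) to 17 (without HT 4 and WT 3) over the fits that leave out libraries. The share of all genes with such a p moved as well, from 3.41% as reported to 3.20%, 3.38%, 7.52%, 4.41% and 8.25% in the first 5 of these fits, and was 2.88% without HT 3, 2.71% without WT 4 and 9.0% without HT 4 and WT 3. For the further list, 3 as reported, the counts were 7 with sample weights, 5 with the trend removed, 12 with the trend removed and without HT 4, and 0 (without WT 4) to 15 (without HT 4 and WT 3) over the libraries left out, against the same shares. Fold changes (log2) of members turned sign as follows. With sample weights they were 0.11 for *Syn3*, 0.067 for *Syt1*, -0.00010 for *Stx1a*, 0.016 for *Cplx2*, 0.042 for *Unc13a*, 0.0068 for *Unc13b*, 0.035 for *Bsn*, 0.10 for *Pclo*, 0.087 for *Erc1*, 0.021 for *Erc2*, 0.038 for *Syt7*, 0.063 for *Stxbp5*, 0.053 for *Rimbp2* and 0.0011 for *Ppfia2*. With the trend removed they were 0.027 for *Syt1*, 0.0037 for *Unc13a*, 0.013 for *Bsn*, 0.019 for *Erc1*, 0.0023 for *Erc2*, 0.021 for *Syt11*, 0.015 for *Stxbp5*, 0.0076 for *Rimbp2* and 0.020 for *Ppfia2*. With the trend removed and without HT 4 they were 0.22 for *Syn3*, 0.066 for *Syt1*, 0.031 for *Cplx2*, 0.076 for *Unc13a*, 0.018 for *Unc13b*, 0.048 for *Bsn*, 0.074 for *Pclo*, 0.11 for *Erc1*, 0.011 for *Erc2*, 0.10 for *Syt7*, 0.090 for *Stxbp5* and 0.082 for *Rimbp2*. Upper quartile scaling gave 0.0026 for *Syt1* and 0.0039 for *Syt11*.

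Over single libraries left out, the ranges that crossed 0 among the members whose values are given by library were -0.31 to 0.22 for *Syn3*, -0.043 to 0.081 for *Syt1*, -0.014 to 0.046 for *Stx1a*, -0.016 to 0.060 for *Cplx1*, -0.057 to 0.030 for *Cplx2*, -0.078 to 0.079 for *Unc13a*, -0.17 to 0.039 for *Unc13b*, -0.040 to 0.12 for *Rims1*, -0.064 to 0.061 for *Bsn*, -0.097 to 0.15 for *Pclo*, -0.056 to 0.12 for *Erc1*, -0.048 to 0.027 for *Erc2* and -0.0077 to 0.11 for *Sncb*. Among the other members, leaving out HT 4 gave 0.073 for *Syt7*, 0.10 for *Stxbp5*, 0.072 for *Rimbp2* and -0.0023 for *Ppfia3*. *Ppfia3* also turned without HT 5 (-0.0038), *Stxbp5* without WT 3 (0.040) and WT 4 (0.013), *Syt11* without HT 1, HT 3, HT 5, WT 1 or WT 3 (0.0012 to 0.021), and *Amph* without HT 1, HT 2, HT 3, HT 5, WT 4 or WT 5 (-0.0097 to -0.0015). For the log2 ratios they were -0.091 to 0.056 for *Bsn* over *Pclo*, -0.027 to 0.10 for *Cplx1* over *Cplx2* and -0.098 to 0.014 for *Erc2* over *Erc1*. *Sv2a* over *Sv2b* ranged from 0.056 to 0.18 and was 0.12 with the trend removed (exact permutation p 0.0476), and *Syn1* over *Syn2* ranged from -0.10 to -0.041, both past an unadjusted exact p of 0.05 with 1 library left out. The cause of these changes was not tested.

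With all 10 libraries and the replicate number as a block, 1 member had an unadjusted limma p below 0.05 and 28 were higher in HT. None passed the adjusted threshold, and these counts were the same as without the block. Such a fit was not run without HT 4. Deviations from the group means correlated at -0.10 to 0.093 between libraries with the same number. Yet 4 of 5 HT libraries correlated best with the WT library of their own number. The correlations were small but the numbers mostly matched, so whether the numbers mark pairs was not settled.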

Other observations

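The marker lists of the whole brain were read first without HT 4. Astrocyte markers were higher in HT for 4 of 10 genes (median log2 fold change -0.025) and oligodendrocyte markers for 5 of 10 (0.023). GABAergic markers were higher for 5 of 8 (0.054), cerebellar markers for 0 of 8 (-0.25), endothelial markers for 1 of 7 (-0.13) and erythroid genes for 6 of 6 (0.42). Forebrain glutamatergic markers were higher for 5 of 9 (0.032) and hindbrain and cord markers for 10 of 11 (0.29). With all 10 libraries the counts were 6 of 10 for astrocyte (0.033), 8 of 10 for oligodendrocyte (0.076) and 5 of 8 for GABAergic markers (0.021). Cerebellar markers then had 1 of 8 (-0.12), endothelial 1 of 7 (-0.078) and erythroid 6 of 6 (0.48). Forebrain glutamatergic markers had 0 of 9 (-0.081) and hindbrain and cord markers 10 of 11 (0.29). Of all genes, 46.4% were higher with all libraries and 49.6% without HT 4. Without HT 4, an unadjusted limma p below 0.05, which 8.40% of all genes had, was found for 3 of 7 endothelial markers (1 higher and 2 lower in HT), 2 of 10 astrocyte markers (1 higher, 1 lower) and 2 of 11 hindbrain and cord markers (2 higher). It was found for 1 of 8 GABAergic markers (higher), 1 of 8 cerebellar markers (lower), and 0 of the oligodendrocyte, erythroid and forebrain glutamatergic markers, and no gene of these lists passed the adjusted threshold.

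Summed levels overlapped between the groups in each of these lists. The cerebellar sum ran from 5935 to 10367 in HT and from 7565 to 9318 in WT, and the erythroid sum from 5960 to 13733 in HT and from 4528 to 13889 in WT. Mean deviations of the 43 presynaptic genes by library were 0.017, 0.031, 0.098, -0.17 and 0.10 in HT 1 to HT 5 on the log2 scale. In WT 1 to WT 5 they were 0.020, -0.07, 0.05, -0.03 and -0.04, so that HT 3 and HT 5 were the highest and HT 4 the lowest.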
